A study of Homo sapiens with 4 samples.

Results

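The mitochondrially encoded genes are the genes carried on the small circular chromosome of the mitochondrion, and they were taken here as every gene whose Ensembl ID maps to a symbol starting with MT-. The symbol table holds 37 such genes, of which 13, all protein-coding, were among the 43450 gene IDs of the expression table. The other 24, 2 ribosomal RNAs and 22 transfer RNAs, were not analysed here. The libraries were made from the line BLaER1, human B leukaemia cells whose inducible C/EBPα transgene lets them be turned into macrophage-like cells. The 2 control libraries, replicates 0 and 1, are labelled only as control, and what these cells received is not given in the sources used here. The 2 knockdown libraries, also replicates 0 and 1, came from BLaER1 cells after 3 LNA GapmeRs against the long non-coding RNA HAL7 were put into the medium with no transfection step. GapmeRs are antisense oligonucleotides that direct RNase H to the RNA they bind. The labels name no induction of the transgene, no treatment time and no separate cultures, so a p-value here reflects the variation among these 4 libraries, which may be purely technical. Within a group, values are given with replicate 0 first and replicate 1 second.

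Human mitochondrial DNA encodes 13 proteins, each a core subunit of the respiratory chain or of ATP synthase, in an electron transport system whose other subunits are made from nuclear genes. Both of its strands are transcribed into long precursors that carry many genes, and the transfer RNAs that lie between the coding genes are cut out to release the messengers. Most of these messengers receive a short poly(A) tail inside the organelle, so that selection of polyadenylated RNA retains them. MT-ND6, the one protein gene read from the other strand, is known for a messenger that largely lacks this tail. Copies of mitochondrial DNA have also been inserted into the nuclear chromosomes, and some of them are nearly identical to their source. Levels are given in FPKM, a count of fragments divided by transcript length in kilobases and by the size of the library.

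Of the 13 genes, 9 had a value in all 4 libraries, 3 were listed at 0 in 3 libraries, and 1 was listed at 0 in all 4. The 9 were the 7 genes of complex I (NADH dehydrogenase), MT-CYB of complex III and MT-CO2 of complex IV. The genes with zeros were the other 2 of complex IV, MT-CO1 and MT-CO3, and both of complex V, MT-ATP6 and MT-ATP8. The zeros of MT-CO3, MT-ATP6 and MT-ATP8, which were abundant in control replicate 0, were read as failed estimates, not as absence of RNA. Those of MT-CO1 were read in the same way, although these data give no abundance for it. For MT-CO1 this reading could not be checked.

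Several members share bases with a neighbour, and these sequences are shown because an overlap bears on how fragments can be assigned. MT-ATP8 ends inside MT-ATP6, and both are translated from 1 messenger, as are MT-ND4L and MT-ND4. In the transcripts of GENCODE 29 (GRCh38, not the authors' build) the last 46 bases of MT-ATP8, in capitals below, are the first 46 of MT-ATP6, and the last 7 bases of MT-ND4L are the first 7 of MT-ND4. MT-ATP6 and MT-CO3 share 1 base. All are read from the plus strand, 5′ to 3′.
MT-ATP8: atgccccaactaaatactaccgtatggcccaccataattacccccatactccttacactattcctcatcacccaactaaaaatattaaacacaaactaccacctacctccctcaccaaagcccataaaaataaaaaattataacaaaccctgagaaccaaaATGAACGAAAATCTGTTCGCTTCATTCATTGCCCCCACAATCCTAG
MT-ATP6, first 76 bases: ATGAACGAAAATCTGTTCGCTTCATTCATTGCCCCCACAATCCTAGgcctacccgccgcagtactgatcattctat
MT-ND4L: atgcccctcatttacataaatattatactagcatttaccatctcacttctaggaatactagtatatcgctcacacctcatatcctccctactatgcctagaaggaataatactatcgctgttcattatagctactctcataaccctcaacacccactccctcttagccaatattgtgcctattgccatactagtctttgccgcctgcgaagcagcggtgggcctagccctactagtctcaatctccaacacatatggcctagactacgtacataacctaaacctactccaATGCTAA
MT-ND4, first 37 bases: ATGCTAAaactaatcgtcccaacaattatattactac
On GRCh38 the mitochondrial genes with zeros lie next to each other, apart from MT-CO1: MT-ATP8 spans 8366 to 8572, MT-ATP6 8527 to 9207 and MT-CO3 9207 to 9990. MT-CO2 (7586 to 8269), which had a value everywhere, lies between MT-CO1 (5904 to 7445) and MT-ATP8 and shares no base with either.

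The nuclear copies are the second reason to look at sequence, since reads of near-identical genes can be split between them. MTCO3P12, on chromosome 1 from 634376 to 634922 on GRCh38, is a partial copy of MT-CO3 of 547 bases that differs from it at 10 positions, an identity of 98.2%. The stretch where they differ most, at 5 of 90 bases, runs from base 253 to base 342 of each transcript, with the differing bases in capitals.
MT-CO3: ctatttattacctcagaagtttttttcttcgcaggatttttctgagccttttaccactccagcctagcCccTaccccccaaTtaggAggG
MTCO3P12: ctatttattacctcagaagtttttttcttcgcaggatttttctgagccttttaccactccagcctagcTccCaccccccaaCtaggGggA
Within the 547 aligned bases, a fragment that covers no differing position is the same in both genes.

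**Figure D1:**
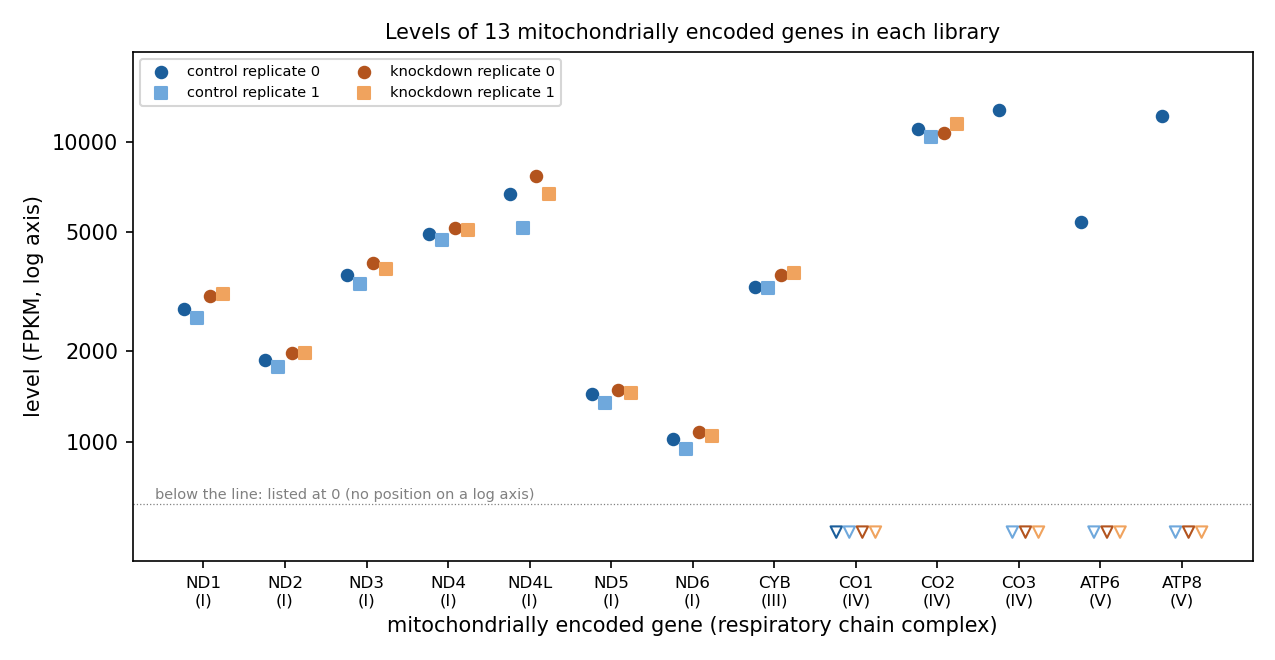
Level of each of the 13 mitochondrially encoded genes in FPKM on a log axis, with 1 point per library and the respiratory chain complex in brackets. Open triangles under the dotted line mark values listed at 0: all 4 libraries for MT-CO1, and every library except control replicate 0 for MT-CO3, MT-ATP6 and MT-ATP8.

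Complex I genes, which encode membrane subunits of the proton-pumping arm, ran from MT-ND6, the lowest of the 9 by level, to MT-ND4L, next below MT-CO2. MT-ND1, a subunit near the quinone site, stood at 2767 and 2578 FPKM in the controls and at 3071 and 3106 FPKM in the knockdown libraries. Both knockdown libraries lay above both controls, and the gap between the groups, 304 FPKM, was larger than the difference of 189 FPKM between the controls. Group means of 2672 ± 134 and 3088 ± 24.7 FPKM (SD, n = 2 each) correspond to a ratio of 1.16 and a log2 change of 0.21 ± 0.07 (SE). This was the only member with an unadjusted limma p under 0.05, at 0.019, and its limma adjusted p was 0.23. In bulk RNA such as this, a change in the number of cells of a type and a change in the RNA of each cell cannot be told apart.

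MT-ND2, an antiporter-like subunit, had 1876 and 1772 FPKM in the controls and 1984 and 1983 FPKM in the knockdown libraries. Its groups did not overlap, and their gap of 107 FPKM was close to the 104 FPKM between the controls. MT-ND3, a small subunit, had 3599 and 3361 FPKM in the controls and 3946 and 3758 FPKM after knockdown. These groups were also apart, by less than the controls were from each other (158 against 238 FPKM). The ratios were 1.09 for MT-ND2 and 1.11 for MT-ND3, with limma adjusted p of 0.38 and 0.36.

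MT-ND4 and MT-ND5 encode further antiporter-like subunits. MT-ND4 had 4918 and 4719 FPKM in the controls and 5172 and 5077 FPKM in the knockdown libraries, a ratio of 1.06. MT-ND5 had 1442 and 1350 FPKM and then 1485 and 1453 FPKM, a ratio of 1.05. Both genes had groups that did not overlap, with a gap smaller than the distance between the controls, which for MT-ND5 was 11.1 against 91.7 FPKM. Their limma adjusted p were 0.55 and 0.58.

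MT-ND4L, the smallest complex I gene at 297 bases, varied most. It was listed at 6716 and 5160 FPKM in the controls and at 7693 and 6717 FPKM in the knockdown libraries. Control replicate 0 and knockdown replicate 1 were 1.03 FPKM apart, which is all that separated the groups, while the controls were 1556 FPKM apart. The means of 5938 ± 1100 and 7205 ± 690 FPKM (SD, n = 2 each) gave 1.21 as their quotient and a log2 change of 0.29 ± 0.14 (SE), with a 95% interval of -0.04 to 0.62 and a limma adjusted p of 0.35. Without control replicate 1 the log2 change was 0.10, and without control replicate 0 it was 0.48.

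Because MT-ND4L and MT-ND4 sit on 1 messenger, their ratio within a library was also taken. MT-ND4L over MT-ND4 was 1.37 and 1.09 in the controls and 1.49 and 1.32 in the knockdown libraries, all on the FPKM scale. The value of control replicate 1 stood below the other 3 libraries. In control replicate 0, the only library with values for the other shared messenger, MT-ATP8 over MT-ATP6 was 2.26. In each case the shorter reading frame of the pair had the higher listed FPKM. Since both frames of a pair sit on 1 messenger, these ratios were not read as different amounts of RNA. Their cause was not tested.

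MT-ND6, the complex I gene on the opposite strand, had the lowest level of the 9 genes, at 1020 and 943 FPKM in the controls and 1075 and 1042 FPKM after knockdown. The groups were 22.2 FPKM apart and the controls 77.4 FPKM apart. The ratio was 1.08 with a limma adjusted p of 0.43. MT-ND6 over MT-ND5, its neighbour, kept within 0.698 to 0.724 in the 4 libraries. Strand-specific counting is not stated, so reads of MT-ND6 and reads antisense to it cannot be told apart.

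Complex III is represented by MT-CYB, the gene of cytochrome b, which carries electrons between the quinone sites. It had 3291 and 3246 FPKM in the controls and 3606 and 3660 FPKM in the knockdown libraries. The groups were 315 FPKM apart and the controls 44.6 FPKM, the widest separation relative to the controls among the 9 genes. The means of 3268 ± 31.5 and 3633 ± 38.2 FPKM (SD, n = 2 each) gave a ratio of 1.11 and a log2 change of 0.15 ± 0.06 (SE), with an unadjusted limma p of 0.0505 and a limma adjusted p of 0.30.

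Complex IV, cytochrome c oxidase, has MT-CO1, MT-CO2 and MT-CO3 as its catalytic core. MT-CO2, which takes electrons from cytochrome c, was the most abundant gene with a value in every library, at 10991 and 10395 FPKM in the controls and 10718 and 11452 FPKM after knockdown. It was the only one of the 9 whose groups overlapped, and its ratio was 1.04, with a log2 change of 0.05, a 95% interval of -0.15 to 0.25 and a limma adjusted p of 0.79. MT-CO1, the subunit that holds the oxygen-binding site, was listed at 0 in all 4 libraries. MT-CO3 was listed at 12730 FPKM in control replicate 0, the highest value of any gene in that library, and at 0 in the other 3 libraries.

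Complex V, the ATP synthase, takes from mitochondrial DNA the proton channel subunit MT-ATP6 and the small subunit MT-ATP8. In control replicate 0 they were listed at 5393 and 12209 FPKM, places 27 and 2 in that library by level, and in the other 3 libraries at 0. No fold is given for MT-CO3, MT-ATP6 or MT-ATP8. With the deposited zeros taken at face value each had a limma adjusted p of 0.41, which rests on the values of a single library.

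**Figure D2:**
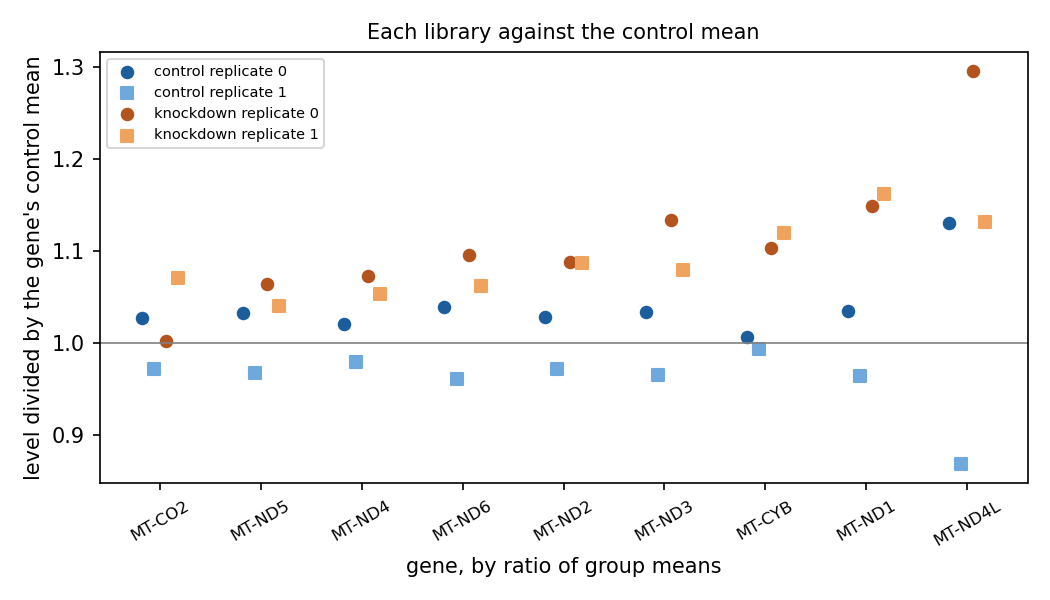
Level of each of the 9 genes with values in all libraries, divided by the mean of its 2 control libraries, with 1 point per library and genes ordered by the ratio of group means. Control replicate 1 is the lowest point for every gene, and knockdown points lie above both controls for 8 of the 9, all except MT-CO2, in values as deposited.

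Control replicate 1 was the lowest library for 9 of 9 genes, against 23.5% of all genes tested. Control replicate 0 stood above control replicate 1 by a factor of 1.01 (MT-CYB) to 1.30 (MT-ND4L). Between the knockdown libraries the factor, replicate 0 over replicate 1, ran from 0.936 (MT-CO2) to 1.15 (MT-ND4L), with knockdown replicate 0 the highest library for 6 genes and knockdown replicate 1 for 3. Since the genes come from shared precursors and shared libraries, they are not independent observations.

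Order by level was the same in each library, from MT-CO2 through MT-ND4L, MT-ND4, MT-ND3, MT-CYB, MT-ND1, MT-ND2 and MT-ND5 to MT-ND6, on the FPKM scale, which is per length. MT-ND4L and MT-ND4 share a messenger, so their order is one of listed values only. Of the 8 neighbouring pairs in this order, 2 had ranges over the 4 libraries that overlapped: MT-ND4L with MT-ND4, and MT-ND3 with MT-CYB. MT-CO2 ranked from 3 to 5 among all genes of a library, and MT-ND6 from 119 to 125. Its place of 5 was that of MT-CO2 in control replicate 0. There MT-CO3, MT-ATP8 and MT-ATP6, listed at 0 elsewhere, took places 1, 2 and 27, so places are not fully alike across libraries. Values of the 9 genes summed to 36618 and 33522 FPKM in the controls and to 38750 and 38246 FPKM after knockdown. As a share of the FPKM total of the library, with MT-CO3, MT-ATP6 and MT-ATP8 left out of that total, this was 4.49% and 4.12% in the controls and 4.77% and 4.48% in the knockdown libraries. By this share the groups overlapped narrowly, since control replicate 0 (4.49%) lay above knockdown replicate 1 (4.48%). With the 3 genes kept in the total, the shares were 4.33% and 4.12% in the controls and 4.77% and 4.48% after knockdown. On that total the groups did not overlap.

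In the comparison of knockdown with control, limma called 0 of the 9 members, and 1 had an unadjusted p under 0.05. Of the 12931 genes in that fit, 4 (0.0309%) were called, 1 higher (0.00773%) and 3 lower (0.0232%), and 16.7% had an unadjusted limma p under 0.05, made up of 7.3% higher and 9.41% lower in the knockdown libraries. Groups did not overlap, with knockdown higher, in 8 of the 9 genes, against 22.6% of all genes tested, and with knockdown lower in 0 of the 9, against 27.7%. A total of 3 of the 9 (MT-CYB, MT-ND1 and MT-ND2) had a gap between groups, with knockdown higher, larger than the distance between the controls, against 12% of all genes tested. These shares cover all genes tested, and genes of similar level were not compared separately. On the deposited scaling 9 of 9 log2 changes were positive (median 0.12, beside -0.01 for all genes), whereas with quantile normalization 6 of 9 were (median 0.05), and those of MT-ND2, MT-ND4 and MT-ND6 turned negative. Median log2 change of the 9 was 0.08 without control replicate 1 and 0.16 without control replicate 0. With 2 libraries a side, the smallest p that an exact permutation test can reach is 0.333, so none is given for single genes.

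**Figure D3:**
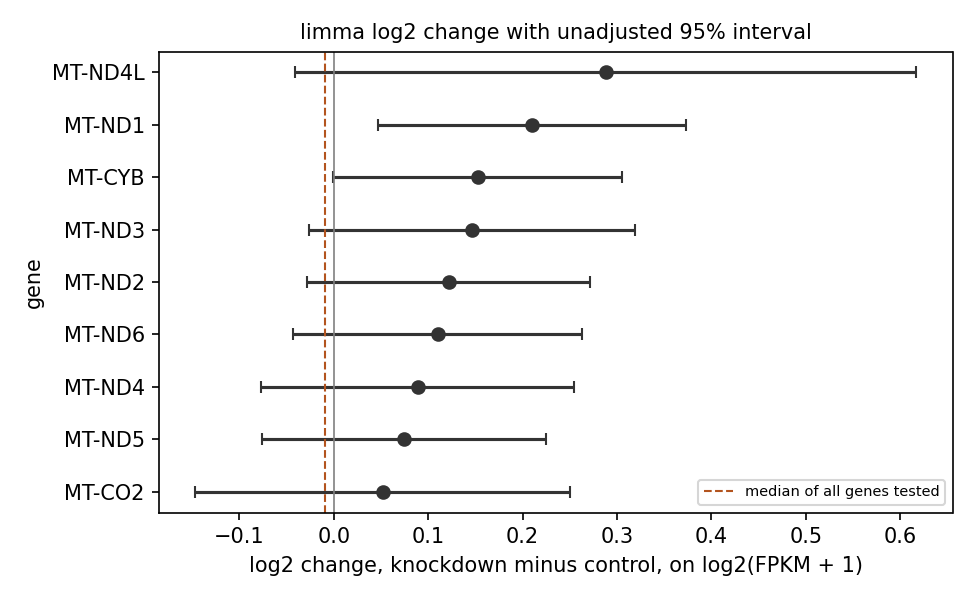
Log2 change of each of the 9 genes with its unadjusted 95% interval from limma, with a dashed line at the median of all genes tested (-0.01). All 9 points lie above 0 on the deposited scaling, against 6 of 9 with quantile normalization, and the interval of MT-ND1 alone lies wholly above 0.

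Transcript GC content moved with the log2 changes over the whole table. Its Spearman rho with the log2 change was -0.41 across 12495 genes, which are not independent replicates, and the 9 genes had a GC content of 40.2% to 47.7% beside a median of 48.6% in all genes tested. With a trend on GC content removed from each library, a setting chosen after seeing the data, the median log2 change of the 9 genes was 0.09, and 9 of 9 were positive. The part of GC content in these changes was not tested further. Changes of single nuclear genes below are given without removal of this trend, and its part in them was not tested either.

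Read depth was estimated from the steps on which low FPKM values lie, with 183 to 199 such values a library. Of these, 82.3% (knockdown replicate 1) to 90.2% (control replicate 0) lay near a whole step, so the depths are approximate. Whether a step was taken at a multiple of its true size was not tested. It corresponded to 60.3 M fragments in control replicate 0, 128 M in control replicate 1, 107 M in knockdown replicate 0 and 96.0 M in knockdown replicate 1, if the authors' scaling left totals unchanged. At those depths and full transcript length the members with a value stood for 0.0323 to 0.907 M fragments. A shorter length in the authors' FPKM would make all of these counts smaller, so they are not lower bounds. Taken as they are, they put the counting error of a single value at 0.556% or less. MT-CO2 stood for 0.453 and 0.907 M fragments in the controls and for 0.785 and 0.752 M after knockdown. In control replicate 0, MT-ATP8, MT-ATP6 and MT-CO3 stood for 0.152, 0.222 and 0.602 M, 0.976 M in sum. By this estimate the library that lists these 3 genes with values is the one of lowest depth, and the other libraries had 1.59 to 2.11 times its depth. The part of depth in the zeros was not tested.

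Nuclear copies of the genes with zeros were listed with values, although reads shared with the mitochondrial gene were not told apart. MTCO3P12 had 232 and 196 FPKM in the controls and 242 and 268 FPKM after knockdown, a ratio of 1.19 and a limma adjusted p of 0.26. It had a value in all 4 libraries, and control replicate 0, where MT-CO3 was listed at 12730 FPKM, was neither its highest nor its lowest library. MTCO1P12, a copy of MT-CO1 of 1543 bases on chromosome 1 (631074 to 632616 on GRCh38) with an identity of 98.6%, had 35.1 and 31.5 FPKM in the controls and 39.0 and 38.3 FPKM after knockdown. Its ratio was 1.16 with a limma adjusted p of 0.22. As with 9 of 9 members, control replicate 1 was the lowest library for both copies.

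MTATP8P1 did not follow this order. This copy of MT-ATP8, on chromosome 1 from 633535 to 633741 with 5 differing positions in 207 bases, had 126 and 174 FPKM in the controls and 180 and 134 FPKM after knockdown. It was high in 1 library of each group, and its ratio was 1.04 with a limma adjusted p of 0.89. The neighbouring copy MTATP6P1, named outside the rule, was at 0.713 to 1.18 FPKM although it is 98.5% identical to MT-ATP6 over 681 bases. In control replicate 0, levels of the mitochondrial gene over its copy were 54.8 for MT-CO3, 96.8 for MT-ATP8 and 5486 for MT-ATP6.

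Elsewhere MTND6P4, a copy of MT-ND6 on chromosome 5 (134924123 to 134924644) that differs from it at 26 of 522 positions, had 12.3 and 10.0 FPKM in the controls and 13.4 and 13.8 FPKM after knockdown, at a limma adjusted p of 0.25. MT-ND6 was 75.6 to 93.8 times as high as this copy. MTRNR2L9 on chromosome 6, a short gene that resembles the mitochondrial large ribosomal RNA, had 14.4 and 11.6 FPKM in the controls and 15.5 and 18.3 FPKM after knockdown, at a limma adjusted p of 0.23. Of 345 listed copies, 255 were at 0 in all libraries and 8 had a mean of at least 1 FPKM.

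**Figure D4:**
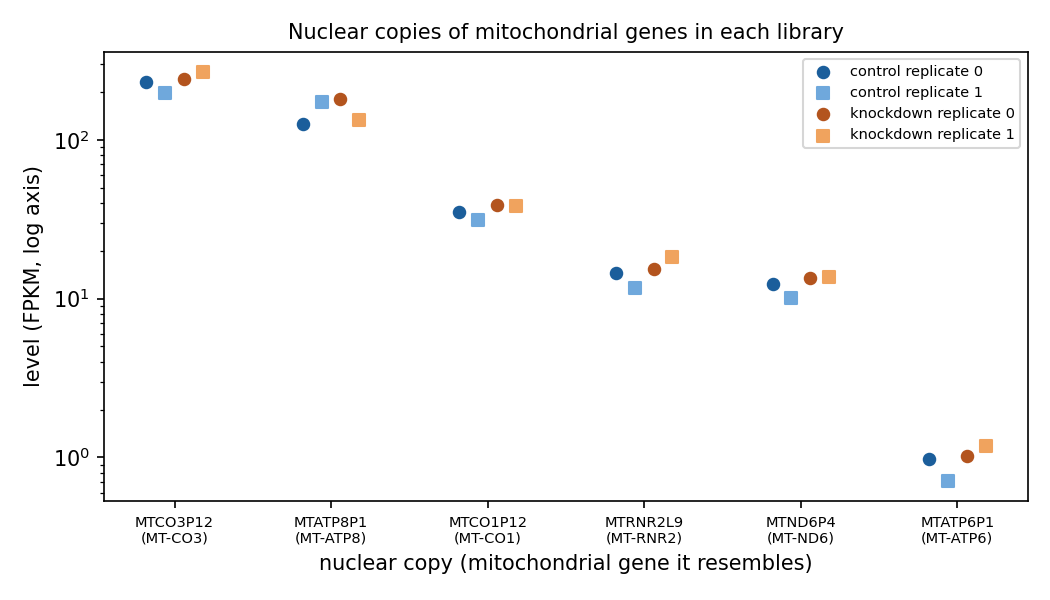
Level of 6 nuclear copies in FPKM on a log axis, with 1 point per library and the mitochondrial gene each resembles in brackets. Every copy shown has a value in all 4 libraries, including those of MT-CO1, MT-CO3, MT-ATP6 and MT-ATP8, and MTATP8P1 alone does not have its lowest value in control replicate 1.

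Nuclear genes that replicate mitochondrial DNA or transcribe, process and translate its RNA, and those of the partner subunits in the same complexes, were read from the same fit. Of 261 genes in 9 lists 254 were matched, and all of these were tested; limma called 0, while 20 were higher and 5 lower at an unadjusted p under 0.05. These are 7.87% and 1.97% of the genes, beside 7.3% and 9.41% of all genes tested. Their median log2 change was 0.01.

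Mitochondrial transcription genes had a median of 0.10 over 9 genes (0.05 with the GC trend removed), of which 7 were positive and 2 were higher at an unadjusted p under 0.05. These 2 are 22.2% of the list, beside 7.3% of all genes tested. TEFM, the elongation factor of the mitochondrial RNA polymerase, had 6.14 and 6.45 FPKM in the controls and 7.23 and 7.47 FPKM after knockdown, a ratio of 1.17 and a limma adjusted p of 0.23. TFB2M, an initiation factor, had a ratio of 1.12 and a limma adjusted p of 0.26. TFAM, which packages mitochondrial DNA and starts transcription, had 45.4 and 44.5 FPKM in the controls and 45.1 and 51.7 FPKM after knockdown, with overlapping groups. MTERF4, a factor of the mitochondrial termination factor family, had 36.3 and 36.0 FPKM in the controls and 33.7 and 33.0 FPKM after knockdown, a ratio of 0.923 with an unadjusted limma p of 0.062 and a limma adjusted p of 0.32.

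RNA processing and stability genes had a median of 0.03 over 40 genes, with 5 higher and 0 lower at an unadjusted p under 0.05. These are 12.5% and 0% of the list, beside 7.3% and 9.41% of all genes tested. TRMT10C, a subunit of the enzyme that cuts the 5′ ends of mitochondrial transfer RNAs out of the precursors, had 18.8 and 18.1 FPKM in the controls and 22.2 and 23.4 FPKM in the knockdown libraries. Both knockdown values lay above both controls, at a ratio of 1.24, an unadjusted limma p of 0.0019 and a limma adjusted p of 0.18. LRPPRC and SLIRP, partners that bind and stabilise mitochondrial messengers, stood at ratios of 0.998 and 1.04 with overlapping groups.

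Among genes of mitochondrial DNA replication the median was 0.03 over 18 genes, with 2 higher at an unadjusted p under 0.05. These are 11.1% of the list, beside 7.3% of all genes tested. SSBP1, which coats single-stranded mitochondrial DNA, had a ratio of 1.08. Translation factors and transfer RNA synthetases had a median of 0.04 over 36 genes, with 3 higher and 0 lower, which are 8.33% and 0% of the list. The shares of all genes tested were 7.3% and 9.41%. PTCD3, which binds the small ribosomal subunit, stood at a ratio of 1.12. The 79 genes of mitochondrial ribosomal proteins had a median of -0.0047 (0.0029 with quantile normalization and 0.02 with the GC trend removed). Of these, 6 were higher (7.59%) and 2 lower (2.53%) at an unadjusted p under 0.05. MRPL1 had 37.3 and 35.6 FPKM in the controls and 43.6 and 45.2 FPKM after knockdown, a ratio of 1.22 and a limma adjusted p of 0.18.

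Nuclear partners in the same complexes had medians closer to that of all genes than the mitochondrial genes had, a difference that was not tested. Medians were -0.02 for 36 complex I genes, -0.04 for 9 complex III genes, -0.0018 for 11 complex IV genes (0.0040 with each library centred on its median) and 0.0015 for 18 complex V genes (-0.03 with quantile normalization). With the GC trend removed they were -0.0095, -0.0053, 0.02 and 0.02 in the same order. At an unadjusted p under 0.05, complex I had 2 genes higher (5.56%) and 1 lower (2.78%), and complexes III and IV 0. Complex V had 1 higher (5.56%) and 2 lower (11.1%). The shares of all genes tested were 7.3% and 9.41%. NDUFA5 of complex I stood at a ratio of 1.20. ATP5F1D, the delta subunit of ATP synthase, had 94.6 and 98.8 FPKM in the controls and 67.0 and 82.0 FPKM after knockdown, a ratio of 0.771 with a limma adjusted p of 0.19. COX7C, COX4I1 and UQCRH, abundant subunit genes of complexes IV and III, had ratios of 1.08, 0.999 and 1.08. Lower ratios were those of COX8A of complex IV, at 0.911 with groups that did not overlap, UQCRFS1, the iron-sulfur subunit gene of complex III, at 0.918 with overlapping groups, and ATP5MC2 of complex V, at 0.904 with an unadjusted limma p of 0.040. Their limma adjusted p were 0.35, 0.47 and 0.28.

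**Figure D5:**
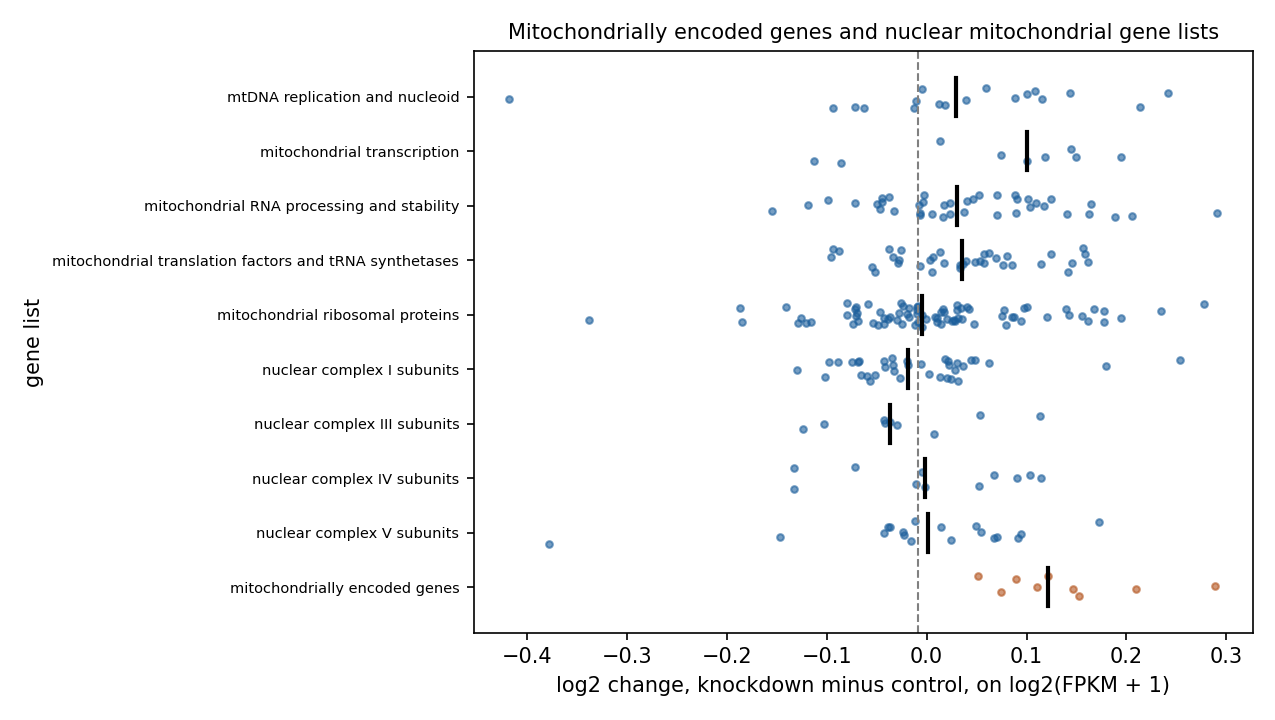
Log2 change of single genes in 9 nuclear mitochondrial lists and in the 9 mitochondrially encoded genes, with a black bar at the median of each list and a dashed line at the median of all genes tested. Mitochondrially encoded genes have a median of 0.12, mitochondrial transcription genes of 0.10, and the subunit lists of the 4 complexes medians of -0.04 to 0.0015.

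HAL7 itself was at 0.726 and 0.613 FPKM in the controls and 0.475 and 0.347 FPKM in the knockdown libraries, a ratio of 0.614. Its mean lay under the 1 FPKM needed to enter the test. Markers of the B lineage, to which the line belongs, were present, with 10 of 10 genes at a mean of 1 FPKM or more and a summed level of 3863 to 3896 FPKM in the controls and 3797 to 3856 FPKM after knockdown. Of 9 matched macrophage and monocyte markers 2 reached that mean. The 9 summed to 38.5 to 39.5 FPKM in the controls and 36.6 to 40.3 FPKM after knockdown. Most of this sum came from the 2, which are among CSF1R, CD68 and MRC1. The other 7, CD14 and LYZ among them, stayed under 0.5 FPKM in every library. Matched T cell markers, 7 in all, summed to 0.264 FPKM or less.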

How the data were processed

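Polyadenylated RNA of 4 BLaER1 libraries was analysed from a table of 43450 Ensembl gene IDs by 4 libraries. The deposited values were read as FPKM, which the authors had computed with Bowtie2 2.2.5, TopHat2 2.0.14 and Cuffdiff 2.2.1 on hg19, per the submitters' processing notes; the unit itself was inferred from the values and the ID column. The sources used here do not give options, annotation or scaling of libraries. Names and lengths came from GENCODE 29 on GRCh38 and a symbol table. Of the IDs, 40158 (92.4%) had a name.

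The knockdown effect was fitted with limma 3.58.1 (R 4.3.3) to log2(FPKM + 1) of genes whose mean reached 1 FPKM, with a variance trend. P-values were two-sided and adjusted by Benjamini-Hochberg, with a threshold of 0.05. Genes listed at 0 in some library and at 100 FPKM or more in another were left out of the fit. They numbered 3 and were all members. The fit leaves 2 residual degrees of freedom. It was also run on simulated data in which each gene varied independently. Such data lack deviations shared by the genes of a library, so that run does not bear on them. Nuclear copies were aligned to members with Biopython 1.88 (local alignment). The alternatives were 2 other pseudocounts, 2 other filters, 2 other normalizations, a constant prior variance, a block on replicate number, the deposited zeros kept and each library left out, plus removal of a GC trend, added after seeing the data.

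The members and lists were chosen with earlier results of these data known. All members were named, and of each nuclear list genes past the threshold, the 2 of highest mean level and the 2 of smallest unadjusted p could be named, of which some are given. Nuclear copies with a mean of at least 10 FPKM were named. Genes outside this rule are marked.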

Additional observations from a re-analysis of the deposited data

How the results depend on the processing

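The count of mitochondrially encoded genes past limma's threshold stayed at 0 under all 14 alternatives, and so did that of the nuclear mitochondrial lists. The count over all genes, 4, was 2 with a pseudocount of 0.1, 1 with no filter on low values, 1 with a mean of at least 5 FPKM and 8 to 33 with a library left out (15 without control replicate 0, 8 without control replicate 1, 33 without knockdown replicate 0, 16 without knockdown replicate 1); these last fits take a group's single remaining library to be as variable as the other group's. Quantile normalization turned 3 log2 changes, to -0.0099 for MT-ND6, -0.0070 for MT-ND2 and -0.010 for MT-ND4. It works on the place of a gene within its library alone. Among all genes, MT-ND6 held places 123 and 123 in the controls and 119 and 125 after knockdown. MT-ND2 held 96 and 93, then 91 and 95, and MT-ND4 31 and 33, then 27 and 34. Places in control replicate 0 count MT-CO3, MT-ATP8 and MT-ATP6, which the fit leaves out. The cause was not tested further. Log2 changes of MT-ND4L ran from 0.10 to 0.48 and of MT-CO2 from 0.0039 to 0.10, both at their ends with a library left out. With the replicate number as a block, 22 genes passed over all genes and 0 members, and no member changed its call; same-numbered libraries deviated together with a correlation of 0.19, but with 2 pairs and no shared origin in the labels the numbers were not taken to pair the libraries. At the recovered depths and full transcript length, the member values above 0 came to 0.0323 M fragments or more. This is not a lower bound, since a shorter length in the authors' FPKM would give fewer. The 2 libraries per group limit the precision of every difference. The part of depth in the values listed at 0 was not tested.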

Other observations

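Nuclear copies of low level, named outside the rule and after their values were seen, gave further values. The mean of MTND1P23 was 1.75 ± 0.151 FPKM in the controls and 2.58 ± 0.353 FPKM after knockdown (SD, n = 2 each; limma adjusted p of 0.20). That of MTND4P12 was 1.54 ± 0.152 and 2.09 ± 0.0560 FPKM (limma adjusted p of 0.22). MTND5P1 lay on the other side, at 1.30 ± 0.0568 and 1.12 ± 0.144 FPKM (limma adjusted p of 0.56).

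Within libraries, MT-CO2 over MT-ND4 ran from 2.07 in knockdown replicate 0 to 2.26 in knockdown replicate 1, with both controls in between. In control replicate 0, the single library with a value for MT-CO3, that gene stood at 1.16 times the level of MT-CO2.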
